A study of Mus musculus with 4 samples.

Results

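The nuclear genes for the subunits of the mitochondrial respiratory chain were compared between livers of PEPCK-TAg mice and wild-type livers. A probe set, the group of oligonucleotides that reads 1 transcript on the array, was taken when the platform's annotation gave it a single gene symbol beginning with Nduf, Uqcr, Atp5, Cox4 to Cox8, Cyc1, Cycs or Cyct, or equal to Sdha, Sdhb, Sdhc or Sdhd. This rule, which uses names alone, found 102 probe sets of 74 genes among the 12422 probe sets that are not array controls. By complex these were 29 genes of complex I with 2 of its assembly factors, 4 of complex II, 8 of complex III, 2 of cytochrome c, 15 of complex IV and 14 of complex V. Another 10 probe sets whose annotation gives several symbols, any of which fits the rule, were left out.

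The 2 PEPCK-TAg arrays and the 2 wild-type arrays (MG_U74Av2) each held total liver RNA of male mice of the B6SJL hybrid background. The PEPCK-TAg mice carry the large T and small t oncoproteins of simian virus 40 as a transgene named for the promoter of phosphoenolpyruvate carboxykinase, a gene of glucose synthesis that is active in liver and kidney. All mice of both groups were 50 to 66 days old and had eaten from weaning, for 4 weeks, a diet of 65% protein and 10% carbohydrate. Whether each array holds RNA of its own animal is not stated in the labels, and the p-values below measure only the spread between these arrays, which may be technical.

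The respiratory chain sits in the inner mitochondrial membrane. Complex I oxidises NADH and complex II oxidises succinate, and both pass electrons to ubiquinone, from which complex III hands them to cytochrome c and complex IV to oxygen. Complexes I, III and IV move protons out of the matrix, and complex V, the ATP synthase, lets them return and makes ATP. Complex II moves no protons, belongs to the citric acid cycle as well, and is the only one of these complexes with no subunit encoded in mitochondrial DNA. Hepatocytes are rich in mitochondria and depend on the chain for glucose and urea synthesis. The subunits encoded in mitochondrial DNA were not analysed here.

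The promoter windows of 7 members are shown because these genes carry the values the comparison turns on, namely complex II and the members of complexes III and V with the largest differences. For Sdhc none is shown, and for Atp5d the first listed of its 2 windows was used. Each runs from 250 bases before to 50 bases after the gene's start in RefSeq (assembly GRCm38.p6), is written 5′ to 3′ on the gene's strand, and has in capitals every match to the NRF1 core (GCGCA, any base, GCGC) or the ETS core (CCGGAAG) on either strand. NRF1 and the ETS factor GABP are known regulators of respiratory chain genes.
Sdha, chr13:74350191-74350490, minus strand: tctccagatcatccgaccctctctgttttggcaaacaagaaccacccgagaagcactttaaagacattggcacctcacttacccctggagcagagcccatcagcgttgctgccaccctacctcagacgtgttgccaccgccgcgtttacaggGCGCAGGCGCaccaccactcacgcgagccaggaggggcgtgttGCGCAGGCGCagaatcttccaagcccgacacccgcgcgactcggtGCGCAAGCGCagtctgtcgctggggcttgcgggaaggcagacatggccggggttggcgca
Sdhb, chr4:140961021-140961320, plus strand: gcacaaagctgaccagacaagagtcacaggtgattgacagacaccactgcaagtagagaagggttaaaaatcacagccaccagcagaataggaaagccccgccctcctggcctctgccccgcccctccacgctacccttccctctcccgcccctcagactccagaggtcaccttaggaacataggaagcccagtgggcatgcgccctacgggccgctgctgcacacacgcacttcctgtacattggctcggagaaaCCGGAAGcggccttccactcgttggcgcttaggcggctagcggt
Sdhd, chr9:50603800-50604099, minus strand: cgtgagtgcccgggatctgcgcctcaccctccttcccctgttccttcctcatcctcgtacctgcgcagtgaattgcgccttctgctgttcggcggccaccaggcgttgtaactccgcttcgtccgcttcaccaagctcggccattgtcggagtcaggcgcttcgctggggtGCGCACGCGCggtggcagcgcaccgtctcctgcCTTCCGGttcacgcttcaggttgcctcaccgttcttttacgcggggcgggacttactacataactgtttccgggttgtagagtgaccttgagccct
Uqcrc1, chr9:108936398-108936697, plus strand: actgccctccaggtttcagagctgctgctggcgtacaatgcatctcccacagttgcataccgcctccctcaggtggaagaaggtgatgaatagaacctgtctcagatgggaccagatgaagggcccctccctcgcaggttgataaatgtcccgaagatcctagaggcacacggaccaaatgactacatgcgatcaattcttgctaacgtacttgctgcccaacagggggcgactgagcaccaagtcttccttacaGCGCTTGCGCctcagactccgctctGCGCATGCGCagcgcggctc
Atp5g2, chr15:102670998-102671297, minus strand: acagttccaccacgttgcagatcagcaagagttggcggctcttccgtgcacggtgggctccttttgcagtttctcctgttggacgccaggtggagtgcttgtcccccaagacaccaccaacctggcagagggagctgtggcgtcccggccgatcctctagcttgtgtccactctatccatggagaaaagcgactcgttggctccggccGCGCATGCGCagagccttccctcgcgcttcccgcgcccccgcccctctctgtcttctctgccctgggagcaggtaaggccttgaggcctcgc
Atp5d, chr10:80142025-80142324, plus strand: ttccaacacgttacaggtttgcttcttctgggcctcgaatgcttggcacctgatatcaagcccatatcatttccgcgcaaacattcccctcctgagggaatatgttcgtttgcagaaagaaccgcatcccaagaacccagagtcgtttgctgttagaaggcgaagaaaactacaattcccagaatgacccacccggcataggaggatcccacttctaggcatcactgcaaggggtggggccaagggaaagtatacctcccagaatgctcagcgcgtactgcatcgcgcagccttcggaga
Atp5pb, chr3:105959214-105959513, minus strand: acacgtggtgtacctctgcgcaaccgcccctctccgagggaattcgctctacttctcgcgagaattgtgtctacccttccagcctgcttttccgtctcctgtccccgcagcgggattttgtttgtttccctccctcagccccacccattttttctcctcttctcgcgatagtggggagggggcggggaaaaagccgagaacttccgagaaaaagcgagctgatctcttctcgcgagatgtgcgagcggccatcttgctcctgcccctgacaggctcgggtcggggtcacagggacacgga
The Sdha window held 3 NRF1 cores and no ETS core, and the Sdhb window held 1 ETS core and no NRF1 core. The Sdhd window held 1 of each, the Uqcrc1 window 2 NRF1 cores and the Atp5g2 window 1 NRF1 core. The windows of Atp5d and Atp5pb held neither motif. A RefSeq window was at hand for 60 members. The NRF1 core stood in 11 of these 60 (18.3%), against 4.78% of the 27025 windows of all genes, and the ETS core in 15 of 60 (25.0%), against 9.12%. Matches of the 2 motifs were counted separately and may overlap, and a match is a run of letters and not a binding site.

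Signals are on a linear scale set by the authors' array software. They were raised to a floor of 10.6 and compared on the log2 scale with limma, and every difference below is PEPCK-TAg minus wild-type in log2 with its standard error (n = 2 arrays each). A probe set was tested when its signal passed 41.3 on at least 2 of the 4 arrays, whichever their group. Of the 102 member probe sets 75 were tested, covering 65 of the 74 genes, and 70 of them lay above 41.3 on all 4 arrays. None of the 75 was tested on the strength of only 1 group. The 27 others had signals of 0.6 to 78.2.

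Sdha, which binds FAD and oxidises succinate in complex II, was the only member whose difference passed an adjusted p of 0.05. Its signals were 214.3 and 159.5 on the PEPCK-TAg arrays, against 544.1 and 798.0 on the wild-type arrays. Both PEPCK-TAg signals lay well below both wild-type signals. Sdha fell by 1.83 ± 0.30 in log2, which is 3.56-fold lower in PEPCK-TAg livers (limma, adjusted p = 0.0125). Over all probe sets tested, 12.5% passed that threshold, 3.4% as lower and 9.1% as higher, so that 1 call among 75 member probe sets lies below the background. No member was called higher. At an unadjusted p under 0.05 limma gave 9 lower and 1 higher of the 75, against 868 lower and 1526 higher of all 7877 probe sets tested. Without wild-type 1 the Sdha difference was -2.11 and without wild-type 2 it was -1.56. The Sdha call was lost without PEPCK-TAg 1, where the difference was -2.05, and without PEPCK-TAg 2, where it was -1.62. It was also lost with the fluidics station as a block (-1.62, adjusted p = 0.229), a fit that leaves PEPCK-TAg 1 as the only PEPCK-TAg array because PEPCK-TAg 2 ran alone on station 2, and with no filter on dim probe sets (adjusted p = 0.128). With the scanner type as a block, which leaves wild-type 1 as the only wild-type array because wild-type 2 alone was read on the other scanner, it was -1.56, as without wild-type 2. In the pair of arrays scanned on the same day it was -1.34. Over these and the other alternatives the difference lay between -2.11 and -1.34.

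The other 3 subunits of complex II lay on the same side, without overlap between the groups, and none passed the test. Sdhb carries the iron-sulphur clusters that lead electrons away from the FAD. It read 2034.9 and 2464.1 on the PEPCK-TAg arrays, against 2930.9 and 3329.8 on the wild-type arrays. Its difference was -0.48 ± 0.23 (limma, adjusted p = 0.210). Sdhc and Sdhd are the membrane anchors, which hold the ubiquinone site. Sdhc read 1372.5 and 1282.2 on the PEPCK-TAg arrays, against 1953.3 and 2683.6 on the wild-type arrays, a difference of -0.79 ± 0.25 (limma, adjusted p = 0.0886). Sdhd read 2788.3 and 3308.6 on the PEPCK-TAg arrays, against 4359.1 and 4718.1 on the wild-type arrays, a difference of -0.58 ± 0.22 (limma, adjusted p = 0.138). The fold lower was 1.40 for Sdhb, 1.73 for Sdhc and 1.49 for Sdhd, all smaller than that of Sdha.

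**Figure D1:**
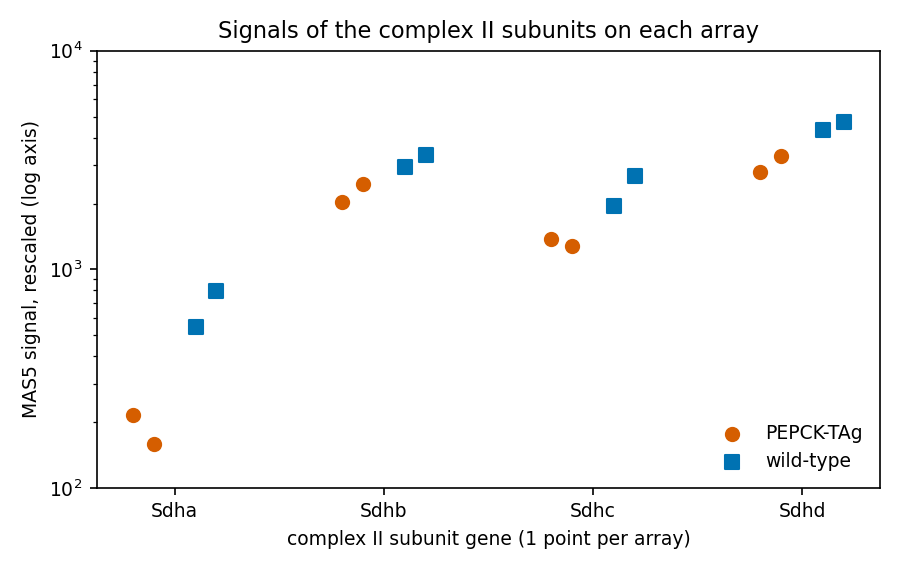
Signal of the 4 complex II subunits on each array (log axis, linear signal units), with PEPCK-TAg arrays (circles) left of wild-type arrays (squares); each point is 1 array. All 8 PEPCK-TAg points lie below the wild-type points of the same gene, with the widest gap for Sdha (159.5 and 214.3 on PEPCK-TAg arrays, against 544.1 and 798.0 on wild-type arrays).

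Complex II thus had 4 of 4 genes lower without overlap, with a median difference of -0.68. Over all 5954 genes tested, 45.9% were lower, 26.2% were lower without overlap, and the median was 0.072. With quantile normalization, which makes the 4 arrays' distributions equal, the 4 genes were again lower without overlap, with a median of -0.42, while the median of all genes moved to -0.057. Relative to all genes, complex II stood at -0.76 with linear scaling and at -0.37 with quantile normalization. Sdhb, Sdhc and Sdhd are bright, with mean signals of 2690, 1823 and 3794. Probe sets other than members had a median of -0.19 from 1000 to 3000 and of -0.48 above 3000, where Sdhd lies. From 300 to 1000, the band of Sdha, it was 0.042. With quantile normalization the differences were -1.98 for Sdha, -0.23 for Sdhb, -0.60 for Sdhc and -0.24 for Sdhd. No difference between complexes was tested, since the genes of a complex are not replicates.

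In the other complexes and cytochrome c, 42 of 59 genes tested were lower, against 45.9% of all genes tested. Of the 59, 22 were lower without overlap, against 26.2% of all genes tested, and none was called. Counting by probe set over the whole chain, 57 of 75 (76.0%) were lower, against 46.9% of all probe sets tested, and 33 (44.0%) were lower without overlap, against 26.5% of all probe sets tested. The 4 higher without overlap compare with 33.3% of all probe sets. Past 2-fold and without overlap lay Sdha alone, with no member higher, against 5.87% of all probe sets lower and 14.7% higher. In bulk liver RNA, fewer cells of a type and less RNA per cell cannot be told apart. With quantile normalization 14 of the 75 signs turned, 43 of 66 genes were lower, and 29 were lower without overlap (43 of 66 against 53.1% lower among all genes, and 29 of 66 against 33.5%). The median over members was then -0.14, against -0.26 with linear scaling, and relative to all genes -0.088, against -0.33. A direction given below for a single gene of complexes I, III, IV and V is that of the linear scaling, and it is named where it turns.

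**Figure D2:**
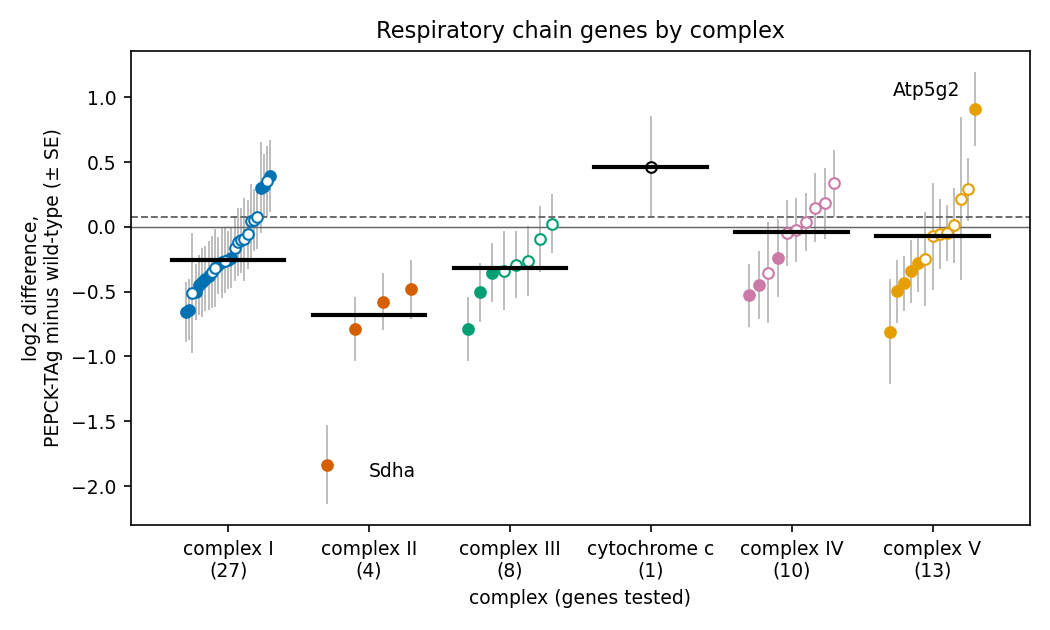
Log2 difference, PEPCK-TAg minus wild-type, of every member gene tested except the assembly factors Ndufaf1 and Ndufaf4, by complex. Each point is 1 gene (its brightest tested probe set) with its SE, filled where the groups did not overlap. The black bars are medians and the dashed line is the median of all genes tested (0.072). Complex II lies wholly below 0 (median -0.68) with Sdha at -1.83, while complexes IV and V have medians of -0.036 and -0.072, the second of which was -0.30 with quantile normalization.

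Complex I takes electrons from NADH through the FMN subunit Ndufv1 and a chain of iron-sulphur subunits. Of its 29 genes, 27 were tested, 20 were lower and 7 higher, with a median of -0.26 and a range of -0.66 to 0.39. None was called, and at an unadjusted p under 0.05 limma gave 2 lower and 0 higher. Over all 5954 genes tested, 656 were lower and 1197 higher at that threshold. The groups did not overlap for 11 lower and 3 higher genes, against 26.2% and 34.7% of all genes. Ndufb9, an accessory subunit, had the lowest difference, with signals of 1022.2 and 1285.2 on the PEPCK-TAg arrays, against 1824.5 and 1793.4 on the wild-type arrays (-0.66 ± 0.23, limma, adjusted p = 0.115). Ndufa6, an accessory subunit, had the highest, with 257.6 and 359.4 on the PEPCK-TAg arrays, against 234.9 and 228.5 on the wild-type arrays (0.39 ± 0.28, limma, adjusted p = 0.380). Ndufa2 and Ndufs4 were the other genes higher without overlap.

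The bright and the redox subunits of complex I gave no call either. The brightest of the complex, Ndufb5, an accessory subunit, read 3130.0 and 3414.9 on the PEPCK-TAg arrays, against 4883.2 and 4401.8 on the wild-type arrays (-0.50 ± 0.21, limma, adjusted p = 0.171). Ndufs3, a core subunit of the arm that leads to ubiquinone, differed by -0.64 ± 0.23 (limma, adjusted p = 0.126). Ndufv1 differed by -0.43 ± 0.27 and Ndufs1, the largest iron-sulphur subunit, by -0.30 ± 0.22. Ndufv2, another iron-sulphur subunit, differed by -0.10 ± 0.25 in its brighter probe set, where the groups overlapped, and by -0.19 ± 0.25 in its dimmer one, where they did not. The assembly factors Ndufaf1 and Ndufaf4, which help to build complex I and are not part of it, differed by -0.59 and -0.080. Signs turned under quantile normalization for Ndufa5, Ndufa9, Ndufb8, Ndufb11 and Ndufc1, and the median of complex I then lay at -0.10. Ndufa12 and Ndufc2 had no probe set tested.

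Complex III passes electrons from ubiquinol to cytochrome c. All 8 of its genes were tested, and 7 were lower, 3 of them (Uqcrc1, Uqcrb and Cyc1) without overlap, with a median of -0.32. Among all genes tested, 45.9% were lower and 26.2% were lower without overlap. With quantile normalization 5 were lower, 4 of them without overlap, and the median was -0.17. All genes then had 53.1% lower and 33.5% lower without overlap. None was called, and limma gave 1 lower at an unadjusted p under 0.05, against 656 lower of all 5954 genes. Uqcrc1, a core subunit that faces the matrix, had the lowest difference. It read 2197.5 and 1632.2 on the PEPCK-TAg arrays, against 3548.2 and 3009.2 on the wild-type arrays, 1.73-fold lower (-0.79 ± 0.25, limma, adjusted p = 0.0901). Uqcr10, a small subunit, read 646.2 and 742.1 on the PEPCK-TAg arrays, against 653.4 and 709.3 on the wild-type arrays, and overlapped (0.025 ± 0.23, limma, adjusted p = 0.958).

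Cyc1 is cytochrome c1, the haem subunit of complex III that hands electrons to cytochrome c. Its brighter probe set read 5521.6 and 6487.5 on the PEPCK-TAg arrays, against 8261.1 and 7077.8 on the wild-type arrays (-0.35 ± 0.23, limma, adjusted p = 0.336), and turned to 0.19 with quantile normalization. Its dimmer probe set read 775.1 and 918.5 on the PEPCK-TAg arrays, against 1107.9 and 1798.7 on the wild-type arrays (-0.74 ± 0.30, limma, adjusted p = 0.151). Both probe sets thus lay lower without overlap under linear scaling. Uqcrc2, Uqcrq and Uqcr10 also turned sign with quantile normalization, Uqcrq to 0.17.

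Cytochrome c itself, the mobile carrier between complexes III and IV, gave no call. Cycs, the form of body cells, read 528.6 and 392.5 on the PEPCK-TAg arrays, against 474.4 and 229.4 on the wild-type arrays. The groups overlapped and the wild-type arrays lay far apart (0.47 ± 0.39, limma, adjusted p = 0.461). Without wild-type 2 the difference was -0.059, and without wild-type 1 it was 0.99 and called. The testis form Cyct had signals of 1.7 and 4.8 on the PEPCK-TAg arrays and of 8.6 and 14.4 on the wild-type arrays, and was not tested.

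Complex IV, cytochrome c oxidase, has subunits that come in forms of different tissues. Of 15 genes, 10 were tested, 6 were lower and 4 higher, with a median of -0.036. None was called, and limma gave 0 at an unadjusted p under 0.05. Cox8c, a testis form of subunit VIII, had the lowest difference, with signals of 421.2 and 477.3 on the PEPCK-TAg arrays, against 715.6 and 584.1 on the wild-type arrays (-0.53 ± 0.24, limma, adjusted p = 0.20). The other Cox8c probe set was dim and not tested, with 4.0 and 3.6 on the PEPCK-TAg arrays, against 1.7 and 1.3 on the wild-type arrays. The Cox8c value thus rests on 1 of its probe sets. Cox5b, which binds zinc, had the highest, with 926.3 and 1217.8 on the PEPCK-TAg arrays, against 932.1 and 761.0 on the wild-type arrays (0.33 ± 0.26, limma, adjusted p = 0.420). The brightest, Cox6a1, the form of liver and most other tissues, read 4754.8 and 4368.0 on the PEPCK-TAg arrays, against 7561.4 and 5111.3 on the wild-type arrays (-0.45 ± 0.26, limma, adjusted p = 0.296), and stood at 0.059 with quantile normalization.

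The groups overlapped for most of the remaining common forms of complex IV. Cox7a2 had 757.7 and 923.2 on the PEPCK-TAg arrays, against 768.8 and 939.9 on the wild-type arrays, and Cox7a2l, which joins complexes III and IV into supercomplexes, had 759.7 and 853.6 on the PEPCK-TAg arrays, against 779.7 and 787.8 on the wild-type arrays. Cox7b had 493.9 and 731.3 on the PEPCK-TAg arrays, against 512.5 and 546.6 on the wild-type arrays. These 3 overlapped. Cox6c had 3028.0 and 4317.6 on the PEPCK-TAg arrays, against 3982.8 and 3514.7 on the wild-type arrays (-0.049, and 0.32 with quantile normalization). Cox6b1, which links the monomers of the dimer, had 87.9 and 112.3 on the PEPCK-TAg arrays, against 114.4 and 120.3 on the wild-type arrays (-0.24), without overlap. Cox4i1, the common form of subunit IV, was the only gene whose tested probe sets differed in sign. The brighter read 227.2 and 188.1 on the PEPCK-TAg arrays, against 191.8 and 181.2 on the wild-type arrays (0.15 ± 0.26), the dimmer 37.4 and 45.0 on the PEPCK-TAg arrays, against 40.5 and 55.6 on the wild-type arrays (-0.21 ± 0.40), and neither passed the test. The brighter turned sign with quantile normalization.

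Forms of complex IV known from other tissues were mostly dim. Cox6a2 and Cox7a1, the heart and muscle forms, were among them. Cox6a2 read 15.6 and 13.7 on the PEPCK-TAg arrays, against 16.9 and 14.2 on the wild-type arrays. Cox7a1 read 11.9 and 7.2 on the PEPCK-TAg arrays, against 5.2 and 7.2 on the wild-type arrays, so neither form showed more than a dim signal. Cox8b, another muscle form, was tested and had 52.9 and 94.6 on the PEPCK-TAg arrays, against 83.0 and 98.4 on the wild-type arrays (-0.35). The testis form Cox6b2 had 3 probe sets, none tested. The first read 39.2 and 45.7 on the PEPCK-TAg arrays, against 1.7 and 8.8 on the wild-type arrays. Another read 6.1 and 21.0 on the PEPCK-TAg arrays, against 62.8 and 24.3 on the wild-type arrays, which is the opposite direction, and the highest signal of the third was 3.1. With no filter the first was called at least 3.99-fold higher (limma, adjusted p = 0.0454), so the value rests on that choice and on 1 of 3 probe sets. Cox5a and Cox8a, common forms, were also below 41.3 on all 4 arrays, which says only that these probe sets gave little signal. No probe set was annotated to Cox4i2 or Cox7c alone.

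Complex V couples the proton turbine in the membrane to the catalytic head. Of 14 genes, 13 were tested, 9 were lower and 4 higher, with a median of -0.072 and a range of -0.81 to 0.91. The median was -0.30 with quantile normalization, -0.33 with the scanner type as a block and -0.21 over probe sets in place of genes. None was called, and by gene limma gave 1 higher and 0 lower at an unadjusted p under 0.05. By probe set limma gave 1 higher and 2 lower of 18 tested, against 1526 higher and 868 lower of all 7877. Over all 5954 genes it gave 1197 higher and 656 lower. Atp5g2, 1 of the genes for the ring subunit c that turns with the protons, had the highest difference. It read 405.7 and 531.2 on the PEPCK-TAg arrays, against 288.0 and 212.7 on the wild-type arrays, 1.88-fold higher and without overlap (0.91 ± 0.28, limma, adjusted p = 0.0885). The array's maker marks this probe set, like 20 of the 102, as possibly shared within a gene family, so it may also read relatives. Its other probe set, not tested, lay the opposite way, with 18.5 and 22.9 on the PEPCK-TAg arrays, against 29.7 and 32.9 on the wild-type arrays. Atp5g1, another gene for subunit c, differed by -0.072.

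Members of the stalk and head of complex V lay lower or overlapped. Atp5d, the delta subunit of the central stalk, had 4 probe sets tested, all lower, from -0.81 to -0.18. The one with the lowest difference in complex V read 409.6 and 489.3 on the PEPCK-TAg arrays, against 725.3 and 849.2 on the wild-type arrays (-0.81 ± 0.24, limma, adjusted p = 0.0779). Atp5pb, subunit b of the outer stalk, read 69.8 and 39.4 on the PEPCK-TAg arrays, against 81.3 and 103.9 on the wild-type arrays (-0.81 ± 0.40, limma, adjusted p = 0.231). Atp5a1, the alpha subunit of the head and the brightest of complex V, read 4268.7 and 4754.6 on the PEPCK-TAg arrays, against 5874.8 and 5092.7 on the wild-type arrays (-0.28 ± 0.22, limma, adjusted p = 0.432), and stood at 0.20 with quantile normalization. For Atp5c1, the gamma subunit of the central stalk, 1 probe set differed by -0.60 ± 0.22 and the other by -0.046, which turned to 0.36 with quantile normalization. Atp5l showed the widest spread, with 500.3 and 407.2 on the PEPCK-TAg arrays, against 804.3 and 187.3 on the wild-type arrays. Atp5j2 was not tested, with 17.6 and 19.1 on the PEPCK-TAg arrays, against 39.2 and 41.6 on the wild-type arrays.

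The 2 PEPCK-TAg arrays did not lie equally far from the wild-type mean. For complex I the median over genes was -0.33 on PEPCK-TAg 1 and -0.070 on PEPCK-TAg 2, against 0.043 and -0.043 on the wild-type arrays. For complex III it was -0.50 and -0.20 on the PEPCK-TAg arrays, against 0.12 and -0.12 on the wild-type arrays. For complex IV it was -0.24 and 0.092 on the PEPCK-TAg arrays, and for complex V -0.14 and -0.0044. Complex II stood at -0.72 and -0.65 on the PEPCK-TAg arrays, against -0.16 and 0.16 on the wild-type arrays. Both values are lower than that of any other complex on any array. As a measure of intact RNA, the 3′ over 5′ ratio of the actin controls was 3.82 and 3.14 on the PEPCK-TAg arrays, against 4.33 and 3.41 on the wild-type arrays. The PEPCK-TAg arrays came from 1 chip lot and each wild-type array from another, so lot and group cannot be told apart. PEPCK-TAg 1 and wild-type 1 were scanned on the same day. In that pair alone 54 of 63 genes were lower in PEPCK-TAg, against 48.6% of all genes, and the medians were -0.37 for complex I, -0.59 for complex II and -0.57 for complex III, with no test possible.

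**Figure D3:**
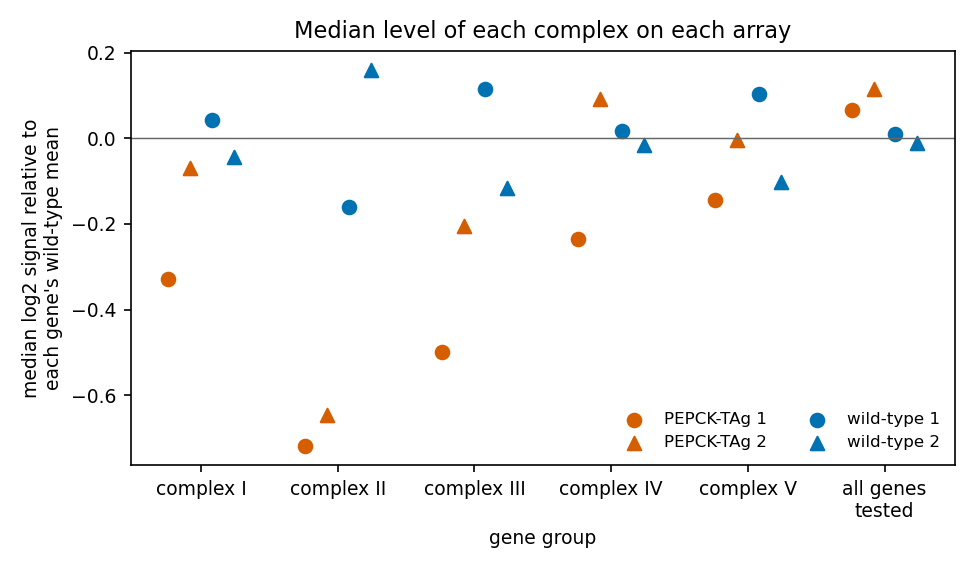
Median over genes of the log2 signal relative to the wild-type mean, for each complex and array, with PEPCK-TAg arrays left of wild-type arrays; each point is 1 array. Both PEPCK-TAg points of complex II lie near -0.7 (-0.72 and -0.65), whereas for complexes IV and V one of them lies near or above 0.

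Bright probe sets as a whole lay lower in PEPCK-TAg livers under linear scaling, and many members are bright. Among probe sets other than members with a mean signal of 1000 to 3000, the median difference was -0.19 and 60.6% were lower, and above 3000 the median was -0.48 and 79.2% were lower. The 19 members from 1000 to 3000 had a median of -0.40 with 94.7% lower, and the 10 members above 3000 had a median of -0.32 with 90.0% lower. Above 3000 the members therefore lay no lower than other probe sets by the median, although a larger share of them was lower. The 26 members from 300 to 1000, the band with the most members, had a median of -0.036, against 0.042 in the others. In the 10 members from 100 to 300 the median was -0.14, against 0.16 in the 2636 other probe sets, and in the 10 below 100 it was -0.23, against 0.11. With quantile normalization the 10 brightest members had a median of 0.18, against 0.0071 in the others, and those from 1000 to 3000 had -0.23, against -0.0061. Those from 300 to 1000 then had -0.076, against -0.053. Members from 100 to 300 had -0.39, against -0.096, and those below 100 had -0.49, against -0.15.

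**Figure D4:**
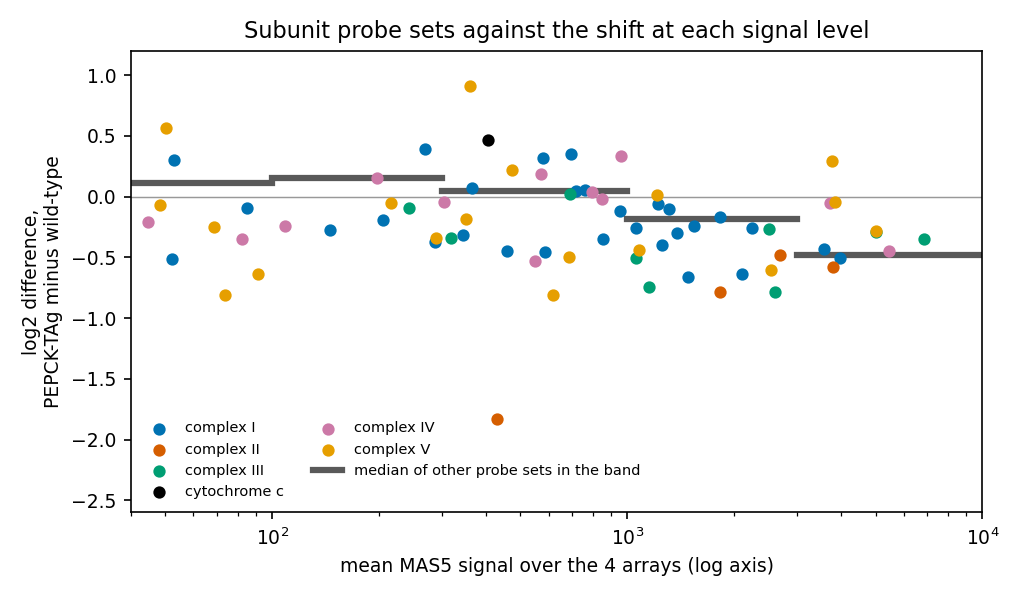
Log2 difference, PEPCK-TAg minus wild-type, against the mean signal (log axis) of each member probe set tested except those of Ndufaf1 and Ndufaf4, coloured by complex. The grey bars are the median of the probe sets that are not members in each signal band. The bars lie at 0.16 for signals of 100 to 300 and at -0.48 above 3000, and most members lie below 0, with Sdha the lowest at -1.83.

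Markers of other cells differed between the groups alongside these values. Of 12 hepatocyte markers tested, 3 fell, namely Ttr, Tat and Cyp2e1, and none rose, with summed signals of 55183 and 70138 on the PEPCK-TAg arrays, against 96580 and 99853 on the wild-type arrays. With quantile normalization their median difference was -0.21, against -0.57 with linear scaling, and 2 fell and 1 rose. Of 18 myeloid markers 13 rose (sums 12686 and 16552 on the PEPCK-TAg arrays, against 2856.8 and 2500.4 on the wild-type arrays), and of 11 erythroid markers 8 rose (sums 11219 and 16136 on the PEPCK-TAg arrays, against 4076.0 and 4448.1 on the wild-type arrays). Of 18 markers of dividing cells 17 rose, with sums of 17097 and 15423 on the PEPCK-TAg arrays, against 1689.7 and 1437.3 on the wild-type arrays. Both wild-type signals lay below 41.3 for 7 of the 13 myeloid, 2 of the 8 erythroid and 7 of the 17 dividing cell markers that rose, which were therefore tested only through the group where they are high. Of the markers tested otherwise, 6 of 11 myeloid, 6 of 9 erythroid and 10 of 11 dividing cell markers rose. The part of these cells in the differences of the respiratory chain was not tested. Of the striated muscle markers 10 of 20, Myh7, Mb and Acta1 among them, were below 41.3 on all 4 arrays, as were Prm1 and Prm2 of testis, Ucp1 of brown fat and Adipoq of white fat. Others were above 41.3 on all 4 arrays. Pvalb of muscle read 330.5 and 345.7 on the PEPCK-TAg arrays, against 578.7 and 465.4 on the wild-type arrays. Lep of fat read 147.9 and 264.9, against 195.2 and 468.6, and Tnp1 of testis 101.2 and 209.5, against 180.2 and 185.4. Of 9 muscle markers tested 7 were lower and 2 higher, with a median of -0.62. The muscle marker Atp2a1 fell, tested only through the wild-type arrays, and of 2 fat and 3 testis markers tested none was called.

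Other mitochondrial genes, in lists of 142 genes tested, gave 4 called higher and 1 called lower, against 9.56% and 3.34% of all genes. The largest difference was that of Slc25a4, the ADP/ATP carrier known from heart and muscle, which exchanges the product of complex V across the inner membrane. It read 1476.7 and 1696.8 on the PEPCK-TAg arrays, against 61.9 and 84.3 on the wild-type arrays. Slc25a4 rose 21.9-fold (4.45 ± 0.27, limma, adjusted p = 0.000589), a call lost in 1 of the tested alternatives, the fluidics station as a block (4.35, adjusted p = 0.129), and it was the only call among 9 genes of carriers, porins and uncoupling proteins. Slc25a5, the carrier form of dividing cells, read 297.3 and 485.3 on the PEPCK-TAg arrays, against 451.1 and 409.0 on the wild-type arrays, and overlapped (-0.18 ± 0.30, limma, adjusted p = 0.729).

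In the citric acid cycle and pyruvate dehydrogenase, which feed NADH and succinate to the chain, 12 of 17 genes were lower and the median was -0.35. Sucla2, a subunit of the ATP-forming succinyl-CoA synthetase that makes succinate, the substrate of Sdha, read 1176.1 and 868.1 on the PEPCK-TAg arrays, against 2274.4 and 2076.6 on the wild-type arrays. Sucla2 fell 2.15-fold (-1.10 ± 0.25, limma, adjusted p = 0.0341). The Sucla2 probe set is marked, like that of Atp5g2, as possibly shared within a gene family, so it may also read relatives. Pdk3, a kinase that inactivates pyruvate dehydrogenase, read 128.3 and 103.8 on the PEPCK-TAg arrays, against 25.4 and 3.2 on the wild-type arrays, at least 7.03-fold higher because 1 wild-type array lay below the floor (limma, adjusted p = 0.0176). Pdk3 was tested only through the PEPCK-TAg arrays, since both wild-type signals lay below 41.3, and its call was lost with no filter (adjusted p = 0.169) and with the station block (0.222). Sucla2 and Pdk3 were the only calls in that list. With quantile normalization the list's median was -0.23 and the adjusted p of Sucla2 was 0.0532. Sucla2 was not called either without PEPCK-TAg 1 (0.119) or without PEPCK-TAg 2 (0.226).

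The mitochondrial ribosome, which makes the chain's subunits encoded in mitochondrial DNA, had more genes higher than lower. Of 58 ribosomal protein genes tested 41 were higher and 17 lower, with a median of 0.22, beside 54.1% higher and a median of 0.072 over all genes. Mrpl23 read 633.3 and 693.3 on the PEPCK-TAg arrays, against 307.2 and 258.0 on the wild-type arrays, and rose 2.35-fold (limma, adjusted p = 0.0226). Mrps26 read 310.2 and 333.5 on the PEPCK-TAg arrays, against 147.5 and 147.0 on the wild-type arrays, and rose 2.18-fold (limma, adjusted p = 0.0333). With quantile normalization the list's median shrank to 0.072, with 36 of 58 genes higher, and Mrps26 was no longer called (adjusted p = 0.0716). Without PEPCK-TAg 1 or without PEPCK-TAg 2 neither gene was called, with adjusted p from 0.166 to 0.202. The other lists had no call by limma. Their medians were -0.22 over 12 assembly factors of the complexes, 0.030 over 13 genes of electron entry and ubiquinone, 0.0092 over 17 regulators of mitochondrial biogenesis (-0.096 with quantile normalization) and 0.21 over 16 genes of protein import. At an unadjusted p under 0.05 limma gave 1, 3, 2 and 2 genes in these lists in the same order. Over all 5954 genes it gave 1197 higher and 656 lower.

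**Figure D5:**
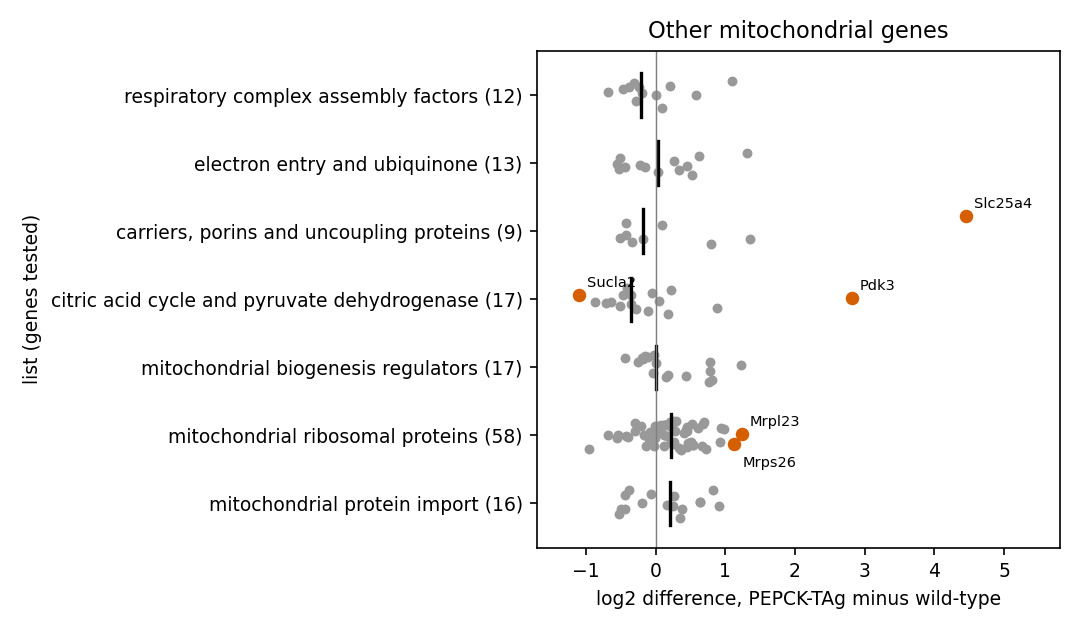
Log2 difference, PEPCK-TAg minus wild-type, of the genes tested in 7 lists of other mitochondrial genes; each point is 1 gene, orange and named where the adjusted p is under 0.05 and grey otherwise, and the black bars are medians. Slc25a4 stands apart at 4.45, and the ribosomal proteins have a median of 0.22 while the citric acid cycle list has -0.35.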

How the data were processed

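Total liver RNA was measured on 4 arrays, 2 PEPCK-TAg and 2 wild-type. For each probe set the authors deposited an intensity on a linear scale, 1 per array. MAS5 is named, with no version, per the submitters' processing notes. The deposited intensities had a trimmed mean of 250.1 to 250.2 on each array, so the arrays had been scaled linearly, which leaves their medians unequal (77.0 and 84.7 on the PEPCK-TAg arrays, 68.5 and 66.6 on the wild-type arrays). Saturation at the top and background at the bottom can shrink a difference, and the number of arrays limits the precision.

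Each array was rescaled to the mean trimmed mean (by at most 0.102%), and log2 was taken above a floor at the 20th percentile of all signals, 10.6. Probe sets above the 40th percentile, 41.3, on at least 2 arrays were tested, which left 7877 of 12422 after 66 controls. The groups were fitted with limma 3.58.1 in R 4.3.3 (lmFit, eBayes with a trend, two-sided) without a block, and p-values were adjusted by Benjamini-Hochberg over all 7877. The smallest p of an exact permutation test with 2 arrays in each group is 0.333. The pipeline was tested on simulated data. Symbols came from the platform's annotation, which gives 1 symbol for 10833 probe sets, several for 396 and none for 1193, and all 102 member probe sets matched RefSeq symbols. A gene with several tested probe sets, which 8 members have, is represented in gene counts by the brightest. Of the member probe sets, 20 are marked as shared within a gene family and 2 as shared between transcripts, and these may read relatives. The labels do not say that replicate numbers pair the arrays, although those numbered 1 share a scan day, station and scanner, and the deviations of same-numbered arrays correlated at 0.253.

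The members, the gene lists and the rules were chosen with earlier results of these data known. Named with values were each called member, each past 2-fold without overlap, in each complex the lowest and highest difference and the brightest, the tissue forms, genes whose probe sets disagree, and in the other lists up to 3 called genes with the smallest p. Ndufs1, Ndufs3, Ndufv1, Ndufv2, Ndufa2, Ndufs4, Uqcrb, Uqcrq, Atp5c1, Atp5g1, Atp5l, Atp5j2, Sdhb, Sdhc, Sdhd and Slc25a5 were added after their values were seen. The lists covered assembly factors, electron entry and ubiquinone, carriers, the citric acid cycle, biogenesis regulators, mitochondrial ribosomal proteins, protein import, and markers of hepatocytes, muscle, fat, testis, myeloid, erythroid and dividing cells.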

Additional observations from a re-analysis of the deposited data

How the results depend on the processing

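Sdha was the only member called, and the count of called members (1 lower, 0 higher) was 0 to 7 when 1 array was left out, with 0 to 4 lower and 0 to 3 higher. It was 0 without PEPCK-TAg 1 and without PEPCK-TAg 2, where limma gave 4 and 5 at an unadjusted p under 0.05, and 7 without wild-type 1, where the lone wild-type array is assumed to vary like the others. With the fluidics station as a block it was 0, with 6 at an unadjusted p. With an adjusted p of 0.1 it was 5 (4 lower, 1 higher), and with no filter 1 higher and 0 lower. Shares called or past 2-fold over all probe sets are given for the main setting only. The counts of this paragraph under other settings therefore have no background beside them, and may follow a change over the whole array. The arrays numbered 1 share the scan day, station and scanner and those numbered 2 share none of these, so the labels' numbers were not taken as pairs; the replicate block gave 6 (5 lower, 1 higher). The other mitochondrial genes called, 5 of 142, became 3 with quantile normalization, 1 with no filter, 18 with the replicate block, 0 with the station block (11 at an unadjusted p), 12 at an adjusted p of 0.1 and 1 to 15 when 1 array was left out. Members differing 2-fold without overlap, 1 lower and 0 higher, became 3 with quantile normalization, all lower, and 4 with no filter (3 lower, 1 higher). They were 1 to 5 when 1 array was left out, with 1 to 3 lower and 0 to 2 higher.

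Medians with quantile normalization were -0.10 for complex I, -0.42 for complex II, -0.17 for complex III, -0.14 for all members, -0.30 for complex V and -0.53 for the assembly factors Ndufaf1 and Ndufaf4. When 1 array was left out they were -0.33 to -0.070 for complex I, -0.83 to -0.54 for complex II, -0.50 to -0.098 for complex III, -0.059 to 0.99 for Cycs, -0.24 to 0.092 for complex IV, -0.33 to -0.0044 for complex V and -0.33 to -0.12 for all members. In the pair scanned on the same day they were -0.57 for complex III, -0.22 for complex IV, -0.29 for complex V and -0.41 for all members. Complex IV stood at -0.24 with the station block, and complex V at -0.33 with the scanner block and at -0.25 when probe sets of a gene were averaged. The cause of these shifts was not tested. Among the medians, the direction turned for complex IV without PEPCK-TAg 1 and with the filter at the 60th percentile (0.0079), and for Cycs without wild-type 2 and with the scanner block (-0.059 in both). The 95% interval of a member's difference, not adjusted for the number of probe sets, reached 0.514 to 1.5 in log2 to either side, with a median of 0.611. A difference smaller than that reach could not be told from 0 with 4 arrays. A larger one could still miss the adjusted threshold, as did those of Sdhc (-0.79) and Atp5g2 (0.91).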
